A study of Mus musculus with 47 samples.

Results

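The cytosolic ribosomal protein genes were examined in hippocampal RNA sequencing of young and old mice treated with vehicle or PF4. A gene was a member if its row of the count table was Rpsa or carried a symbol of the form Rpl, Rps or Rplp followed by a number, with an optional a, l or x that may itself carry a digit, and if its reads summed over all 47 libraries reached 470. This symbol rule took 83 of the 35486 rows, and 79 of them reached the minimum. The 79 members comprised 47 genes of the large subunit, among them the 3 P-stalk genes, and 32 of the small subunit. Just inside the minimum lay Rps29 with 584 reads, and just outside it lay Rpl24 with 385. The remaining symbols left out were the paralogs Rpl3l with 68 reads, Rpl39l with 14 and Rpl10l with 0. All 79 members also passed the count filter of the fit, which 17778 genes passed in all.

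The libraries came from snap-frozen hippocampus of 47 male C57BL/6J mice, an inbred strain. Young Veh (n = 13) and Old Veh (n = 12) received vehicle, and Young PF4 (n = 12) and Old PF4 (n = 10) received mouse platelet factor 4, a chemokine that platelets release, by intraperitoneal injection before each day of behavioural training and testing. Mice labelled Young were 3.75 to 5.26 months old and mice labelled Old were 17.4 to 20.23 months old. The groups thus differ in age and in PF4 and share the strain, the sex and the injections.

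Ribosomal proteins surround the ribosomal RNAs of the small subunit, which decodes messenger RNA, and of the large subunit, which forms peptide bonds. They are needed in nearly equal numbers, one of each per ribosome, with the acidic stalk proteins as the exception, and their messenger RNAs are among the most actively translated of a growing cell. Many of these messenger RNAs begin with a run of pyrimidines, the 5′ terminal oligopyrimidine tract, through which the kinase complex mTORC1 controls their translation. In neurons, ribosomes stand in the cell body and in dendrites, where local protein synthesis contributes to lasting synaptic change. Bulk tissue gives the level of a messenger RNA over all cells, so that fewer cells of a type and less RNA per cell cannot be told apart.

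The first 30 bases of the annotated principal transcript are shown for 2 members with high levels and for 3 members with small p between Old Veh and Young Veh, because this end carries the pyrimidine tract. They come from the GENCODE M21 transcripts of GRCm38 and run 5′ to 3′, with the longest run of C and T in capitals.
Rpl4, chr9:64173375-64173404, plus strand: CTTTTCCTgtgggagcagccgggtagagag
Rplp1, chr9:61914513-61914542, minus strand: gaTCTTTTCCTCagctgccgccaaggtgct
Rpl14, chr9:120571444-120571473, plus strand: aaTCggtgggcacgctggacgtcgggggcg
Rps23, chr13:90922958-90922987, plus strand: CCTgaaaaggaaataacagcgtaaatgaaa
Rpl26, chr11:68901635-68901664, plus strand: ggcgggttgtcgctggtaaTCCgcagccat
Rpl4 and Rplp1 hold long runs at or near the annotated start, whereas the runs of Rpl14, Rps23 and Rpl26 are of 2 or 3 bases. Over the 79 members, 24 (30.4%) held a run of at least 7 pyrimidines in this window, against 15.8% of the 21841 other protein-coding genes. The letters CTTTT or CTTTC, searched on the transcript strand only, occurred in 12 members (15.2%) and in 5.29% of the other genes. These letters can lie inside a counted run. An annotated start need not be the start used in hippocampus, so a short run says only that these letters are not in this window.

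The members lie on 19 chromosomes, with 14 on chromosome 7 and 4 on chromosome X. Their principal transcripts are short, with a median of 886 bases (345 to 5179), against 2848 for all genes tested that have a length. Ribosomal protein genes are known as hosts of small nucleolar RNAs, which are cut from their introns and guide the modification of ribosomal RNA, and 30 members contained 59 annotated small nucleolar RNA genes. They are also the source of many processed pseudogenes, copies of their messenger RNA inserted elsewhere in the genome. A median of 51.3% of the 50-base stretches of a member's transcript (0 to 98.6%) occurred also in another annotated gene, and a median of 8 pseudogenes (0 to 120) shared at least 1 such stretch. Rpl7a had the 120. How reads that fit several places were counted is not given in the sources used here, and the libraries carry no strand information. Levels of members with many copies are therefore uncertain, as are those of the 26 members that another annotated gene overlaps.

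Library totals ran from 2242879 to 21112908 counts, and members received a mean of 12.4 reads (Rps29) to 4829 reads (Rpl4) per library, with a median of 236. The 5 excitatory neuron markers Slc17a7, Neurod6, Prox1, Camk2a and Snap25 had reads in every group and summed to between 5144 and 7606 CPM, reads scaled to library size, in each library, as the tissue label requires. Of the 8 libraries with the lowest totals, 4 are Old Veh. No library was set aside.

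The levels of the members spanned 142-fold after division by transcript length. Rpl4, a protein of the wall of the peptide exit tunnel, stood highest at 303 CPM per kb averaged over the 47 libraries. It alone took 15.6% of the reads of the module. Among the other high members, Rps14 stood at 174 CPM per kb and the stalk protein Rplp1 at 167. Among the low members, Rpl12 stood at 3.42 CPM per kb, Rpl11 at 3.16 and Rps29 at 2.98, and Rpl17 was the lowest at 2.14. The 5 genes with the most reads held 36.7% of the module. The highest and the lowest member both belong to the large subunit, and small subunit genes reached at most 174 CPM per kb, with a median of 19.2 CPM per kb in the large subunit and 24 in the small subunit. Proteins that a ribosome holds in equal number were thus read at unequal levels in these counts.

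**Figure D1:**
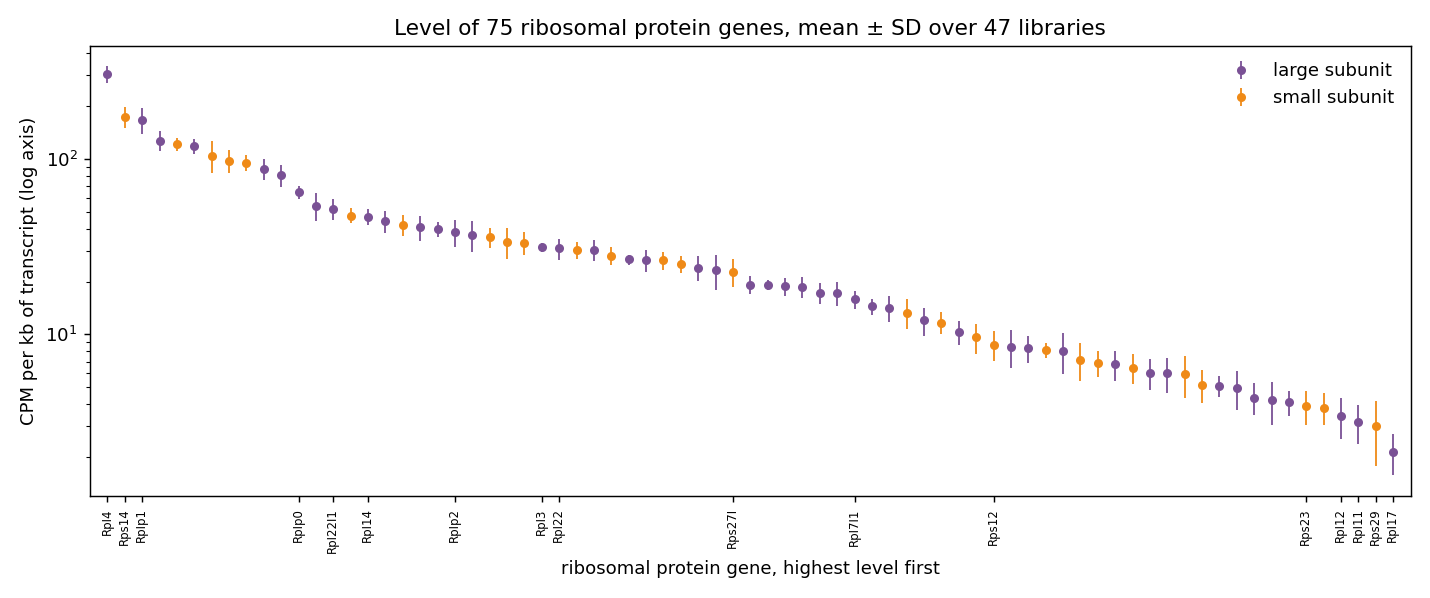
Level of 75 of the 79 ribosomal protein genes in CPM per kb of the principal transcript (log axis), ordered from highest to lowest, with points at the mean and bars at the SD over 47 libraries, colours for the subunit and names for some genes. Rpl4 stands highest at 303 CPM per kb, Rpl17 lowest at 2.14, both of the large subunit, and between them the genes of both subunits are mixed.

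Members with more copies elsewhere in the genome stood lower. The 40 members with at least 50% of their 50-base stretches shared had a median of 12.7 CPM per kb, and the 39 with less had a median of 33.3. Across the 79 members, the log2 level was lower with the number of pseudogenes (Spearman's rho = -0.45) and with the shared percentage (rho = -0.39), and its rho with transcript length was -0.03. These are descriptions across genes, which are not independent replicates, and the part of read counting in them was not tested. Rpl4, the highest, shared 16.5% with 1 pseudogene, and Rpl17, the lowest, shared 44.7% with 50 pseudogenes.

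Neighbours in the order of levels often differed by less than their spread over the libraries. Rps14 had 174 ± 23.4 CPM per kb and Rplp1 167 ± 28 (SD, n = 47), so their order was not resolved. Rpl4, at 303 ± 33.5, stood apart from them. At the other end, Rps29 (2.98 ± 1.20) and Rpl17 (2.14 ± 0.56) overlapped widely.

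The share of all counts that fell on the 79 members was 0.304% ± 0.017 in Young Veh (SD, n = 13), 0.307% ± 0.023 in Young PF4 (n = 12), 0.289% ± 0.022 in Old Veh (n = 12) and 0.307% ± 0.024 in Old PF4 (n = 10). The libraries of Old Veh ran from 0.263% to 0.335% with a median of 0.286%, and those of Young Veh from 0.282% to 0.336% with a median of 0.297%. Young PF4 ran from 0.282% to 0.353% (median 0.297%) and Old PF4 from 0.277% to 0.362% (median 0.305%). The Old Veh mean was the lowest of the 4, but every group overlapped every other. The highest single library was Old PF4 replicate 11 at 0.362%, and without it the Old PF4 mean was 0.301%.

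**Figure D2:**
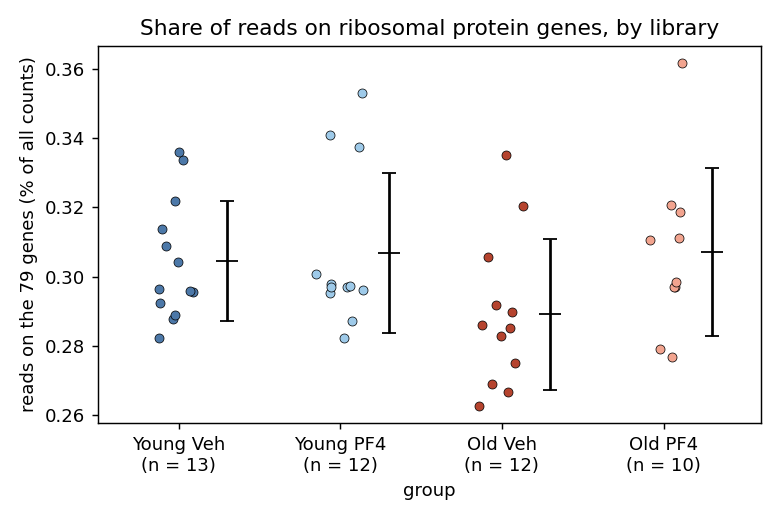
Reads on the 79 ribosomal protein genes as a percentage of all counts, 1 point per library, with the bar beside each group at mean ± SD; the axis does not start at 0. Old Veh has the lowest mean, 0.289%, and the ranges of all 4 groups overlap.

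The age comparison among vehicle-treated mice asked which members differ between old and young hippocampus. In this comparison 1 of 79 members was called (0 higher, 1 lower), where 2.77% of the 17778 genes tested were called (edgeR quasi-likelihood test, Benjamini-Hochberg adjusted p under 0.05) and 0.607% were called lower and 2.16% higher. At an unadjusted p under 0.05 there were 6 members, where 15.2% of all genes passed. The members as a group lay slightly below the rest of the genes. Of 79, 63 (79.7%) had a log2 fold change below 0, against 54.7% of all genes tested, and their median was -0.07 against -0.01. In no comparison did the groups of any member fail to overlap (0 of 79 in each, where 0.0619% of all genes did so between Old Veh and Young Veh, 0.00562% between Old PF4 and Young PF4 and 0% in both PF4 comparisons).

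The members named here did not pass the threshold. Rpl14, of the large subunit, had 43.4 ± 4.25 CPM in Old Veh (37.4 to 51.5, median 42.3) and 49.0 ± 2.5 in Young Veh (44.1 to 52.6, median 48.9). Its log2 fold change was -0.17 ± 0.05 (SE; edgeR, adjusted p = 0.0711), and 8 of 12 Old Veh libraries lay below every Young Veh library. It passed the threshold when Old Veh replicate 1 (adjusted p = 0.0406) or Old Veh replicate 9 (0.0469) was left out, and when the 2 groups were fitted alone (0.0386). Rps23, a small subunit protein at the decoding centre, had 3.15 ± 0.50 CPM in Old Veh and 4.00 ± 0.95 in Young Veh, with a log2 fold change of -0.33 ± 0.12 (edgeR, adjusted p = 0.130). Rpl26, of the large subunit, differed by -0.19 ± 0.08 (edgeR, adjusted p = 0.203).

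**Figure D3:**
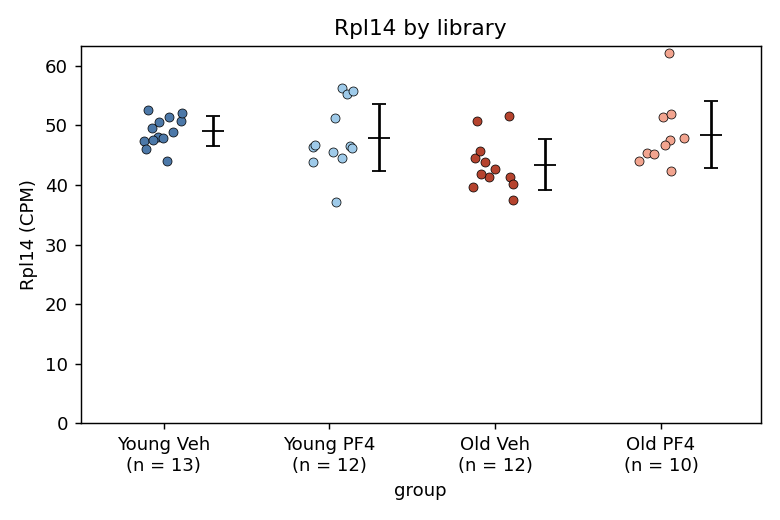
CPM of Rpl14 in each library, 1 point per library, with the bar beside each group at mean ± SD. Of 12 Old Veh libraries, 8 lie below all 13 Young Veh libraries, and the highest value, 62.1 CPM, is Old PF4 replicate 11.

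By subunit, 37 of 47 large subunit genes and 26 of 32 small subunit genes had values below 0 in this comparison, with medians of -0.06 and -0.08. The stalk genes recruit the translation factors that hydrolyse GTP. Rplp0, their anchor, had -0.09 ± 0.05, Rplp1 -0.15 ± 0.09 and Rplp2 -0.07 ± 0.10 (log2 fold change ± SE), and none was called. The 24 members with a run of at least 7 pyrimidines had a median of -0.08 and the 55 others -0.07. The 30 hosts of small nucleolar RNAs had -0.06 and the 49 others -0.09. The 39 members with under 50% of their sequence shared had a median of -0.09, with 35 of them below 0, and the 40 with more shared had -0.03, with 28 below 0.

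The mean of the gene-centred log2 values of the members moved little against the spread of libraries. It was -0.05 ± 0.12 in Old Veh (SD, n = 12), 0.01 ± 0.09 in Young Veh, 0.02 ± 0.12 in Young PF4 and 0.02 ± 0.11 in Old PF4. Other library measures differed between these groups too. The length index subtracts the mean centred log2 CPM of short transcripts (longest at most 2019 bases) from that of long ones (at least 4601 bases), members left out. It averaged 0.04 ± 0.07 in Old Veh, -0.02 ± 0.12 in Young Veh, 0.00 ± 0.08 in Young PF4 and -0.02 ± 0.08 in Old PF4. Its medians were 0.04 in Old Veh, 0.01 in Young Veh, 0.00 in Young PF4 and 0.01 in Old PF4. Young Veh replicate 4 (-0.35) and Old PF4 replicate 8 (-0.23) were the lowest of their groups. With the length index as a covariate the members' median between Old Veh and Young Veh was -0.06, with 55 of 79 below 0. Summed choroid plexus markers ran from 15.1 to 4259 CPM in Old Veh (median 47.1) and from 12.0 to 4259 in Young Veh (median 1943). All 10 of these markers had reads in both groups, and the choroid plexus score as a covariate gave a median of -0.08 and the same single call. Summed microglia markers had a median of 330 CPM in Old Veh (276 to 387) and 292 in Young Veh (251 to 335), with 1 of 5 called, and astrocyte markers 1955 and 1882, also with 1 of 5 called. Excitatory neuron markers had medians of 6214 CPM in Old Veh (5677 to 7606) and 5742 in Young Veh (5147 to 6220), with a median log2 fold change of 0.10 over the 5 and none called. Oligodendrocyte markers had medians of 5887 and 5408 CPM, endothelial markers 122 and 121, and red blood cell markers 4.46 and 3.31, with none called. The part of these cell types in the members' values was not tested.

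The PF4-treated mice repeat the age comparison in separate animals. Between Old PF4 and Young PF4, 0 of 79 members were called, where 0.332% of genes were called (edgeR; DESeq2 also called 0 members). At an unadjusted p under 0.05 there were 4 members, where 8.27% of all genes passed. Values were below 0 in 39 members (49.4%, against 48.3% of all genes), and the median was 0.00, as it was for all genes. Rpl14 had 0.00 ± 0.06 here (SE; edgeR, adjusted p = 1.00). Whether an age difference depends on treatment is the same question as whether PF4 acts differently at the 2 ages, which is tested below.

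The smallest p of that comparison belonged to Rps12, of the small subunit's beak. It had 5.56 ± 1.01 CPM in Old PF4 (4.16 to 7.31, median 5.31) and 4.36 ± 0.99 in Young PF4 (2.46 to 5.47, median 4.49). The vehicle groups lay between 4.08 and 6.98 CPM, at 5.27 ± 0.92 in Old Veh and 5.21 ± 0.75 in Young Veh, so Young PF4 was the group that stood low. The log2 fold change of Old PF4 against Young PF4 was 0.33 ± 0.11 (edgeR, adjusted p = 0.260). Rps29, the member with the fewest reads, had 0.52 ± 0.22 (adjusted p = 0.479), and some libraries held 0 of its reads. Rpl29, of the large subunit, had -0.17 ± 0.08 (adjusted p = 0.549).

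In old mice the effect of PF4 was compared between Old PF4 and Old Veh, which shares the Old Veh libraries with the age comparison above, so the values of both comparisons are not independent. No member was called (0 of 79, where 0.0337% of genes were called), by edgeR or by DESeq2. At an unadjusted p under 0.05 there were 9 members, where 6.2% of all genes passed. The members had a median log2 fold change of 0.08 against 0.01 for all genes, and 15 of 79 lay below 0 against 46% of all genes. Without Old PF4 replicate 11, the library with the highest share, the median was 0.06. Marker lists moved by similar amounts in this comparison, with median log2 fold changes of 0.09 for microglia, 0.08 for red blood cells, 0.07 for oligodendrocytes, 0.06 for astrocytes, 0.05 for choroid plexus, -0.06 for excitatory neurons and -0.07 for endothelium, and no marker was called. Their part in the members' values was not tested.

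Rpl14 had 48.5 ± 5.67 CPM in Old PF4 (42.3 to 62.1, median 47.1), and all 10 libraries lay above the Old Veh median. Its log2 fold change was 0.16 ± 0.06 (SE; edgeR, adjusted p = 0.561), and 0.11 without Old PF4 replicate 11. Rps26, a small subunit protein at the messenger RNA exit channel, had 24.8 ± 5.08 CPM in Old PF4 and 20.5 ± 4.33 in Old Veh, a log2 difference of 0.30 ± 0.11 (adjusted p = 0.602). The 3 stalk genes differed by 0.04 to 0.14 on the log2 scale. Large subunit genes had a median of 0.08 and small subunit genes 0.10. With the length index as a covariate the median of the members was 0.07.

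**Figure D4:**
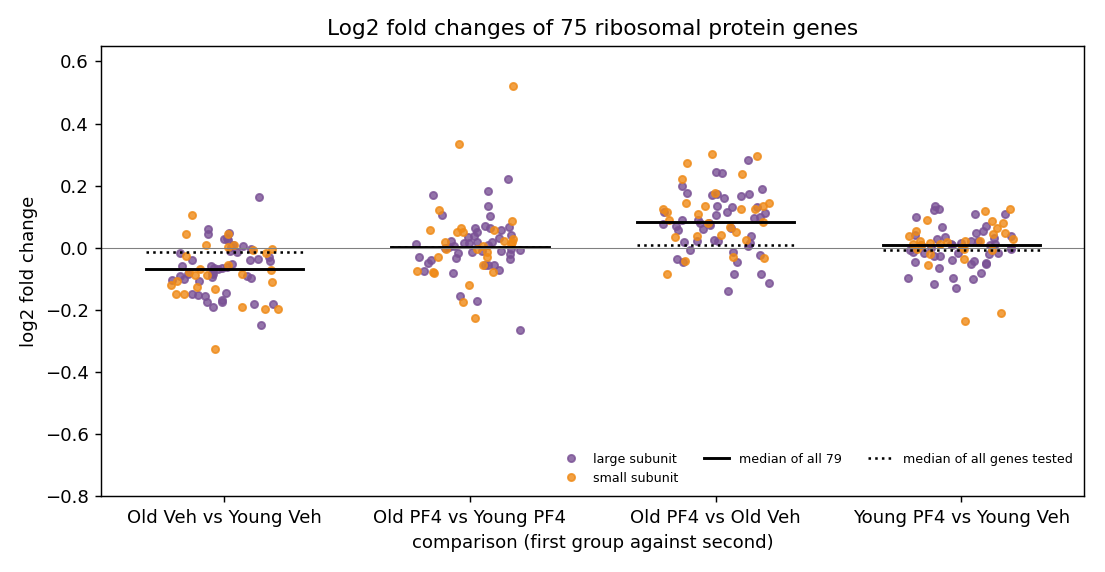
Log2 fold change of 75 of the 79 members in the 4 comparisons, 1 point per gene coloured by subunit, with a solid line at the median of all 79 members and a dotted line at the median of all genes tested. The members' median is -0.07 in Old Veh against Young Veh and 0.08 in Old PF4 against Old Veh, and these comparisons share the Old Veh libraries.

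In young mice PF4 was followed by no called member (0 of 79, with 0% of genes called by edgeR, and 0 members by DESeq2). At an unadjusted p under 0.05 there was 1 member, where 1.2% of all genes passed. Values below 0 were found in 34 members (against 54.3% of all genes). The median of the members was 0.01 and that of all genes -0.01, with members from -0.24 to 0.14. The smallest p were those of Rps12 with -0.24 ± 0.10, Rps2 with 0.12 ± 0.06 and Rpl5 with -0.10 ± 0.06 (log2 fold change ± SE; edgeR, adjusted p = 1.00 for each). Rps2 lies at the entry of the messenger RNA channel, and Rpl5 carries a small ribosomal RNA into the large subunit and binds the p53 regulator Mdm2. Rps12 had 4.36 CPM in Young PF4 and 5.21 in Young Veh, and 11 of 12 Young PF4 libraries lay below the Young Veh median.

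The difference of the PF4 effect between ages was an interaction term of the fit. It called 0 of 79 members, as it called 0% of all genes (5 members and 3.98% of genes at an unadjusted p under 0.05, and 0 members by DESeq2). The log2 fold change with PF4 in old mice minus that in young mice was 0.18 ± 0.08 for Rpl14 (0.16 in old and -0.02 in young mice) and 0.32 ± 0.15 for Rps12 (0.09 in old and -0.24 in young mice; SE; edgeR, adjusted p = 1.00 for each). The median of the members was 0.09 and that of all genes 0.01, with 19 members (24.1%) and 44.6% of all genes below 0. The effects in old and young mice are thus not shown to differ for any member.

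Within groups, most members varied together across libraries, and several well-read members did not. Correlations were taken over the 47 libraries after subtracting each group's mean, and they describe libraries that share scaling and depth. The median r between 2 members was 0.22, with 76.3% of pairs above 0, and among the 43 members with at least 200 reads per library it was 0.42. Removing the length index left the median at 0.22, and the r of single members was not recomputed after it. The r of a member with the mean of the other 78 ranged from -0.27 to 0.92, with a median of 0.52. It reached 0.7 in 23 members, led by Rpl8 (0.92), Rps14 (0.91), Rpl32 (0.88), Rplp1 (0.87) and Rps15 (0.87). It was higher in members with more reads (Spearman's rho = 0.52).

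Reads were not scarce in all of those that stood outside the common movement. Of the 43 members with at least 200 reads per library, 9 had an r under 0.2. They were Rpl4 (0.16), Rpl7 (0.18), Rpl3 (0.19), Rps25 (0.13), Rpl15 (-0.05), Rpl6 (0.03), Rpl27a (0.09), Rpl7l1 (-0.26) and Rpl5 (-0.27). The group was singled out after its values were seen. The r values include Young Veh replicate 4 and Old PF4 replicate 8, the libraries of lowest length index (-0.35 and -0.23). The part of these libraries in the r values was not tested. Of the 9 members, all but Rps25 belong to the large subunit, as do 25 of the 43 members they were drawn from. Rpl4, with the most reads of all, had a within-group SD of 0.14 log2 units. Its highest values were 684 CPM in Young Veh (median 455) and 676 CPM in Old PF4 (median 470). Rpl3, a protein of the peptidyl transferase centre, varied less (0.08).

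**Figure D5:**
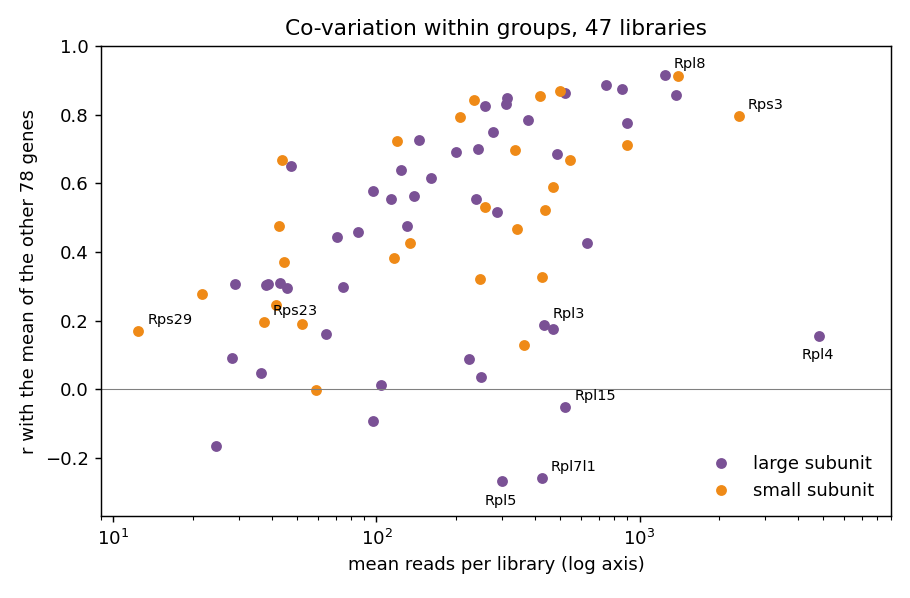
Pearson r of 75 of the 79 members, each with the mean of the other 78, over 47 libraries after subtraction of group means, against its mean reads per library (log axis), coloured by subunit. Most members with many reads lie above 0.5, while Rpl4 (0.16), Rpl3 (0.19), Rpl15 (-0.05), Rpl7l1 (-0.26) and Rpl5 (-0.27) lie lower.

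The spread of single members followed their reads. The within-group SD of log2 CPM ran from 0.08 to 0.77 with a median of 0.22 and was smaller with more reads across members (rho = -0.78). It was large in Rps29 (0.77), Rpl11 (0.46), Rpl23a (0.39) and Rps13 (0.38), which had 12.4 to 44.4 reads per library. Small SDs were those of Rpl3 (0.08), Rpl15 (0.09), Rpl27a (0.10) and Rps3 (0.12). Members such as Rps29 therefore could not show small differences at this depth.

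Paralogs of core proteins were read beside their partners. Rpl22l1 stood at 51.8 ± 7.24 CPM per kb and its partner Rpl22 at 30.9 ± 4.25 (SD, n = 47). Rps27l stood at 22.8 ± 4.07 and Rps27 at 5.96 ± 1.6. Rpl7l1, a protein mainly of the nucleolus, stood at 15.9 ± 1.88 and Rpl7 at 39.9 ± 3.84. The order thus differed between pairs, and so did the sequence shared with other genes. Of their 50-base stretches, Rps27 shared 98.6% and Rps27l 22.4%, Rpl7 53.3% and Rpl7l1 9.19%, and Rpl22 5.19% and Rpl22l1 65.6%. Since the counting of reads that fit several places is unknown, the order within a pair is uncertain. Rpl39 stood at 23.2 CPM per kb, Rpl3 at 31.3 and Rpl10 at 4.35, while their paralogs Rpl39l, Rpl3l and Rpl10l, known mainly from testis or muscle, had 14, 68 and 0 reads in all. Rps4x, from the X chromosome, stood at 25.2 CPM per kb. Between Old Veh and Young Veh, Rpl22l1 had a log2 fold change of -0.09 ± 0.08, Rps27l -0.20 ± 0.10 and Rpl7l1 -0.08 ± 0.07, and none was called (edgeR).

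Ribosomal components that the symbol rule leaves out were read for comparison. Rack1, a scaffold protein on the head of the small subunit, stood at 77.2 ± 6.00 CPM per kb, Fau, whose ribosomal protein is released from a fusion with a ubiquitin-like protein, at 4.22 ± 1.06, and Rpl36al at 9.01 ± 1.27. None was called in any of the 5 comparisons (edgeR). Rack1 differed by -0.08 ± 0.05 between Old Veh and Young Veh and by 0.04 ± 0.05 between Old PF4 and Old Veh.

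The pathways around the ribosome were read from lists of their known genes, and their counts stand beside the 2.16% of all genes tested that were called higher in Old Veh than in Young Veh and the 0.607% called lower. Of 62 ribosome assembly factors tested, 1 was called higher in Old Veh than in Young Veh and 0 lower. It was Mdn1, the giant ATPase that strips assembly factors from the maturing large subunit (log2 fold change 0.26 ± 0.06, adjusted p = 0.0102, edgeR). Of 39 translation factors, 0 were called higher and 2 lower, the elongation factor subunit Eef1d (-0.14 ± 0.04, adjusted p = 0.0441) and the poly(A)-binding protein Pabpc1 (-0.18 ± 0.05, adjusted p = 0.0450). Of 27 genes of mTORC1 and its outputs, 1 was called lower, Deptor, an inhibitor of mTOR (-0.41 ± 0.10, adjusted p = 0.0169). None of these genes was called in the other 4 comparisons, and no member of a list was. The medians of these 3 lists between Old Veh and Young Veh were -0.03, -0.02 and 0.02.

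The mitochondrial ribosomal proteins, which build the separate ribosome of the mitochondrion, were compared as the most similar family. Of 78 tested, 0 were called in any comparison (edgeR), where 2.77% of all genes were called between Old Veh and Young Veh and at most 0.332% in the others. Their median was -0.06 between Old Veh and Young Veh, with 65 of 78 below 0 against 54.7% of all genes. Between Old PF4 and Old Veh it was 0.07, with 10 below 0 against 46% of all genes. These medians stood close to the -0.07 and 0.08 of the cytosolic members. The libraries' measures beside them differed. The share of reads on mitochondrial ribosomal protein genes correlated with the length index at r = -0.86 (Spearman's rho = -0.77, and -0.77 once the 2 most extreme libraries were dropped), and that on the cytosolic members at r = -0.27 (rho = -0.16, and -0.20), each over 47 libraries after subtracting group means. The median r between a cytosolic and a mitochondrial member was 0.08, against 0.22 within the cytosolic family and 0.40 within the mitochondrial one.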

How the data were processed

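Hippocampal messenger RNA was converted to full-length cDNA by Smart-Seq2 and sequenced without strand information in 47 mice. The authors deposited raw read counts per gene. The submitters' processing notes name Trim Galore 0.3.7, STAR 2.5.3a, GRCm38 and DESeq2, and the read counter, annotation and treatment of multiply mapping reads are not given in the sources used here. Groups followed the sample labels. Counts of the 4 groups entered 1 quasi-likelihood fit (R 4.3.3, edgeR 4.0.16) with TMM scaling, filterByExpr and Benjamini-Hochberg adjustment over 17778 genes. A standard error is the size of the log2 fold change over the root of F. CPM values are TMM-scaled, and log2 CPM used a prior count of 2. DESeq2 1.42.0 was an alternative. The fit was also run on simulated counts, whose outcome is not reported here. Lengths, coordinates and shared 50-base stretches came from GENCODE M21, which matched 98.8% of rows.

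Members and lists were chosen with earlier results of these data known. Named are members called or of smallest p per comparison, the extremes of level and spread, the stalk genes, paralogs, components outside the symbol rule, and called genes of the lists. Some members and their results are not reported here. Replicate numbers recur between groups but belong to different mice, and the deviations of same-numbered libraries had a median correlation of -0.01 over 66 pairs, so no pairing was used. No separate cultures or pools are stated, and p-values measure the spread between mice.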

Additional observations from a re-analysis of the deposited data

Results flagged for a closer look

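In the Old PF4 group, the only one small enough to be checked for a library standing apart, 1 library lay far above the others in 2 of the 10 measures checked. The share of reads on the 79 ribosomal protein genes was 0.362% in Old PF4 replicate 11, and its gap to the next library was 0.483 of the group's whole range, above the limit of 0.466 for 10 samples. Rpl14 was 62.1 CPM in that library, with a gap of 0.514 of the range. Such a check passes about 1 in 20 groups by chance. Both values come from the same library. Without that library the mean share of Old PF4 was 0.301% and the median log2 fold change of the members between Old PF4 and Old Veh was 0.06, and Rpl14 had 0.11. The 10 measures did not cover every library measure used here. Old PF4 replicate 8 had the lowest length index of its group (-0.23, next -0.06). It also had the highest share of reads on mitochondrial ribosomal protein genes (0.331%, next 0.275%).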

How the results depend on the processing

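The number of members called in Old Veh against Young Veh was 1, and 2 (Rpl14 added) when the groups were fitted alone. Leaving out 1 library gave 1 to 2 members, with 2 when Old Veh replicate 1 or 9 was left out. With the replicate block it was 1, with Rpl14 not called at -0.17 (edgeR, adjusted p = 0.104), and the block changed no call of a member in the other comparisons, although the numbers do not pair the mice. The other 4 comparisons called 0 members in every setting run. The median log2 fold change of the members ran from -0.10 to -0.06 for Old Veh against Young Veh and from 0.06 to 0.11 for Old PF4 against Old Veh over all settings. For the difference of the PF4 effect between ages it ran from 0.05 to 0.11. The numbers of genes called over the whole table, 492, 59 and 6 in these fits for Old Veh against Young Veh, Old PF4 against Young PF4 and Old PF4 against Old Veh, ranged over the other settings from 176 to 912, 21 to 99 and 0 to 24. Out of a total without the 100 genes of most reads, the share of reads on the members was 0.369% in Young Veh, 0.371% in Young PF4, 0.351% in Old Veh and 0.373% in Old PF4. The interaction was not fitted with groups alone, since it needs all 4. At 10 or more reads in 40 libraries, 75 members were tested. Depth limits members such as Rps29, with 12.4 reads per library on average.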
